A study of Mus musculus with 15 samples.

Results

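DNA replication and the supply of its building blocks are described here through 40 genes, in a mouse macrophage line (RAW264.7) that divides in culture. The genes were listed by name: 4 for origin licensing, 11 for the helicase, 7 for polymerases and primase, 7 for the sliding clamp, single-strand binding and strand joining, 5 for nucleotide supply, 4 for copying chromatin and its methylation, the repair gene Ung and the regulator E2f1. Each gene was read from a probe set to which the platform's gene table gives exactly that 1 symbol, and from the brightest one where there were several. Of the 40 genes, 39 were found among 22180 genes with such a probe set. Rfc4 was not, because its probe set also carries the symbol Eif4a2. All 39 passed the filter on dim genes, which left 15468 genes to be tested. None of the 39 owed this to 1 group, since each lay above the 40th percentile of every one of the 15 arrays.

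Arrays of total RNA, 15 in number, fall into 5 groups of 3, all RAW264.7 cells kept in 0.1% ethanol, the vehicle of the compounds. Cells without LPS had vehicle and then buffered saline. The other 4 groups received vehicle, 5.0 µM 13-HDHEA, 5.0 µM 16-HDHEA, or 2.5 µM of each (the combined treatment), and 30 min later 1.0 µg/mL lipopolysaccharide (LPS), a bacterial cell wall component that activates macrophages. HDHEAs are hydroxylated ethanolamides of docosahexaenoic acid, an omega-3 fatty acid, and the 13- and 16- forms differ in the position of the hydroxyl group. Cells were collected after 24 h. Every group is the same cell line, and replicates 1, 2 and 3 are 3 experiments with their own identifiers in the labels, which each hold 1 array of every group. A cell line is 1 source of cells, so the spread between arrays is that between experiments. No group had an HDHEA without LPS.

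DNA replication starts when the origin recognition complex, Cdc6 and Cdt1 load the MCM helicase onto origins in G1, and when Cdc45 and the GINS complex then switch it on in S phase. Polymerases alpha, delta and epsilon copy the strands, and the PCNA clamp holds delta and epsilon. Ribonucleotide reductase, thymidylate synthase and thymidine kinase supply deoxynucleotides. Most of these genes are known to be transcribed from late G1 under E2F factors, so that their transcripts are abundant in dividing cells and low in resting ones. Macrophages in tissue divide little, whereas RAW264.7 cells divide continuously, and LPS is known to slow the division of macrophages.

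The labels were checked first. All 10 macrophage markers examined, among them Csf1r, Itgam and Cd68, lay above the 40th percentile on each of the 15 arrays. With LPS, Cd14 was higher and Csf1r and Tyrobp were lower. The LPS-induced genes Il1b, Il6, Nos2, Ptgs2 and Tnf were higher on each of the 12 arrays with LPS than on the 3 without, with Il6 at 10.82 ± 0.051 (SD, n = 3) on the log2 scale with LPS and vehicle against 2.55 ± 0.25 without LPS. Lymphocyte markers were near the bottom of the range, with 2 of the 5 found tested and none passing with LPS against no LPS. Of the 5 fibroblast and of the 6 epithelial and endothelial markers tested, 1 each passed as higher with LPS, as did 2089 of all 15468 tested genes. They were Pdgfra (4.16 ± 0.52 without and 5.12 ± 0.34 with LPS and vehicle) and Cdh5 (5.44 ± 0.24 and 5.86 ± 0.058). The summed linear level of the 6 fibroblast markers ran from 57.4 to 72.0 without LPS and from 80.1 to 91.0 with LPS and vehicle, and that of the 6 epithelial and endothelial markers from 121.7 to 146.4 and from 144.2 to 154.7. The 10 macrophage markers summed to between 26361 and 28102 without LPS and between 25740 and 27182 with it. The part of these markers in the results below was not tested.

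All 39 genes fell with LPS. The comparison of LPS with vehicle against no LPS asks what LPS did without an HDHEA. Limma called 39 of 39 lower and none higher at an adjusted p under 0.05, against 16.3% of all genes tested called lower. With the experiment as a block it was 39 of 39 as well, against 18.7%. A decrease of at least 2-fold was called for 29 of the 39, against 3.36% of all genes. The median difference of the 39 genes was -1.33 on the log2 scale, 2.51-fold, where the median of all tested genes was 0.00. Single genes ran from -1.87 for Tk1 to -0.51 for Tyms, and the largest adjusted p was 0.00751. In each of the 39 genes the 3 arrays with LPS and vehicle lay below the 3 without, which 22.2% of all tested genes did. Fewer cells in S phase and less of each transcript per cell cannot be told apart in RNA from whole cultures.

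**Figure D1:**
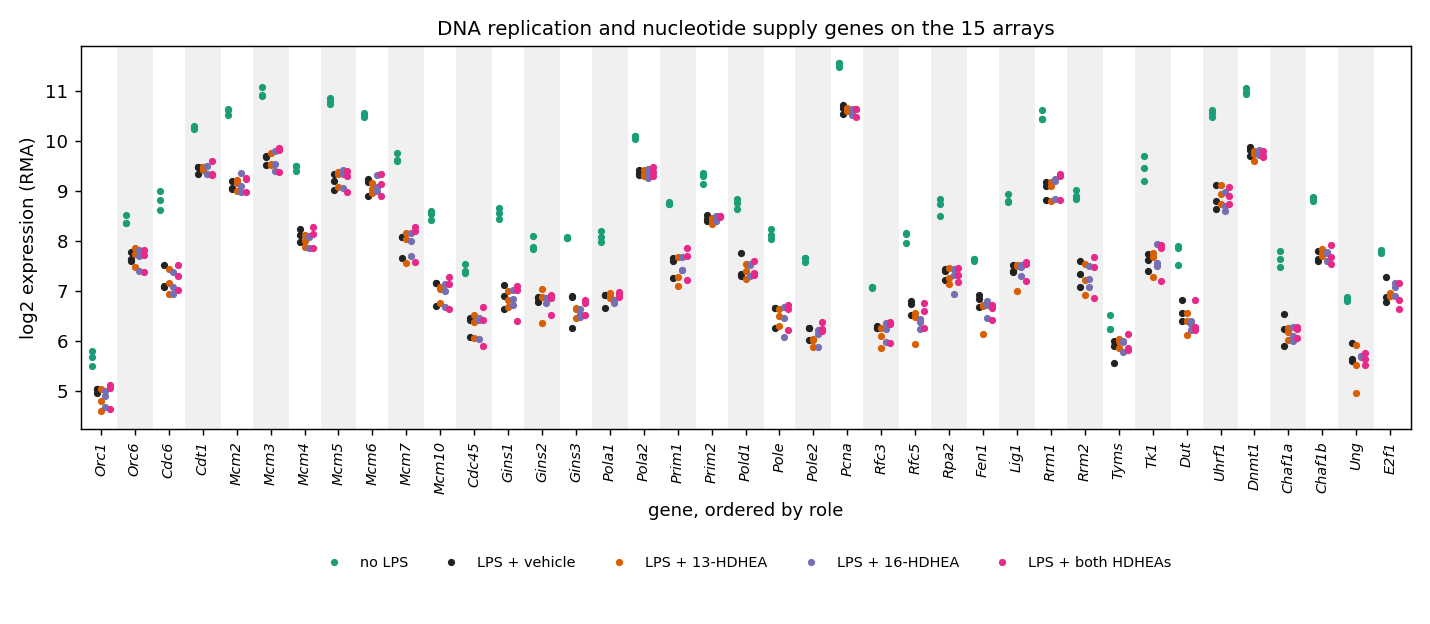
Log2 expression of the 39 genes (x axis, ordered by role) on each of the 15 arrays (1 point per array, coloured by group, 3 arrays a group). The 3 arrays without LPS lie above the 12 arrays with LPS in every gene, and the 4 groups with LPS overlap.

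Starts of the genes were examined for letters that E2F factors are known to bind. RefSeq promoters of GRCm38.p6, 250 bases before to 50 after a start, were found for 34 of the 39 genes, with 41 promoters in all. Gins1, Gins2, Mcm4, Pole and Prim2 had none in the table. The letters searched on both strands were TTTCCCGC, TTTCGCGC, TTTGCCGC or TTTGGCGC for E2F, which may overlap each other on opposite strands, and CCAAT for the CCAAT box. Of the 34 genes, 15 (44.1%) held at least 1 E2F match in a promoter, against 2.6% of all 27025 genes in the table. By promoter this was 15 of 41 (36.6%) against 2.26% of 32851. A CCAAT box stood in a promoter of 20 of the 34 genes (58.8%), against 41.1% of all genes. The cell cycle homology letters TTTGAA or TTCGAA were in 7 of the 34 (20.6%), against 21.7%. The genes and promoters of the table were not limited to genes tested on the arrays. E2F matches stood in Orc1, Cdc6 and Cdt1, in the helicase genes Mcm3, Mcm5, Mcm6, Mcm7 and Gins3, in Pola1, Pold1 and Pole2, in Rfc3 and Lig1, and in Uhrf1 and Dnmt1. The 5 nucleotide supply genes, Ung and E2f1 held none in these windows. A match is a description of the letters and not a measured binding site. The genes were listed by name as replication genes, so these shares would be the same whatever LPS did. Whether a match goes with the LPS decrease was not tested.

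The promoters of the 4 genes with the largest LPS decrease among those in the table are shown. Capitals mark E2F and CCAAT matches on either strand, and the gene's start is base 251. Mcm7 lies at chr5:138171834-138172133, minus strand, with E2F matches at positions -165 and 17 from the start. This is the first of the 2 Mcm7 promoters in the table, and the other holds a CCAAT match but no E2F match. Mcm5 lies at chr8:75109259-75109558, plus strand, with a pair of overlapping matches at positions -153 and -149. Uhrf1 lies at chr17:56303087-56303386, plus strand. It is the first of the gene's 2 promoters in the table, holds 3 CCAAT boxes and no E2F match, and the other promoter holds 1. Tk1 lies at chr11:117825965-117826264, minus strand, and holds neither.
Mcm7: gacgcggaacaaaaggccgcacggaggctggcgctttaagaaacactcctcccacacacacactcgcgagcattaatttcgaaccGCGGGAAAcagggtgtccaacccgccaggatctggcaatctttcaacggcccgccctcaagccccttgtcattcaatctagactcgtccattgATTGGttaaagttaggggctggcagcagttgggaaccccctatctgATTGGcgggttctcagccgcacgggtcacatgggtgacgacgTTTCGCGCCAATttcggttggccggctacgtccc
Mcm5: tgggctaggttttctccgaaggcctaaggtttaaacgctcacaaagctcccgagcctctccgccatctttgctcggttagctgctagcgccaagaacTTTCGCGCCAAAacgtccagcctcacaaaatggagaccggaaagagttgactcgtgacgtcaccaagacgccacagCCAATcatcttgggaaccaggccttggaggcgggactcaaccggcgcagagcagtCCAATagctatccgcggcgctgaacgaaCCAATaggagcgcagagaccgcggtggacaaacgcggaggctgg
Uhrf1: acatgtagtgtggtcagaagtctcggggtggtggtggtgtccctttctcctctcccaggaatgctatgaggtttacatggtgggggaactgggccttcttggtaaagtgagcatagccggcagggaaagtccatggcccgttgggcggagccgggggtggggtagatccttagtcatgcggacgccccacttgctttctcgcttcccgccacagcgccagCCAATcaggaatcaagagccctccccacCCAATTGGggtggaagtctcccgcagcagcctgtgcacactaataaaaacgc
Tk1: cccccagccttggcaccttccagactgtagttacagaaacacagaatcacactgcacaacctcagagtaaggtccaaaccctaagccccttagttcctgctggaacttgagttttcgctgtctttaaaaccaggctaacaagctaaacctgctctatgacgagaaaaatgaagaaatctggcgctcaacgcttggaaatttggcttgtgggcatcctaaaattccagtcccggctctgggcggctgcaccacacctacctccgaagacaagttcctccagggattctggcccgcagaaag

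Licensing genes fell in all 4 cases, with a median of -0.79 on the log2 scale, and 1 of them at least 2-fold. Cdc6, the ATPase that brings the helicase to origins, read 9.01, 8.61 and 8.82 without LPS and 7.07, 7.10 and 7.52 with LPS and vehicle (replicates 1, 2 and 3, log2). It was 3-fold lower (log2 difference -1.58, SE 0.18, adjusted p = 8.79e-06 in limma). Cdt1, its partner in loading, read 10.27, 10.24 and 10.30 without LPS and 9.48, 9.48 and 9.33 with it, tight in both groups and clearly apart, a decrease of 1.79-fold (-0.84, SE 0.087, adjusted p = 4.72e-06 in limma). Orc6 and Orc1 are subunits of the origin recognition complex. Orc6 read 8.35, 8.52 and 8.36 against 7.63, 7.78 and 7.60 (-0.74, adjusted p = 8.41e-04 in limma). Orc1, the dimmest of the 39 genes, read 5.69, 5.79 and 5.50 against 4.96, 5.03 and 5.03 (-0.65, adjusted p = 0.00272 in limma). Even for Orc1 the highest array with LPS and vehicle lay below the lowest array without LPS.

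The 11 helicase genes each fell at least 2-fold, with differences from -1.72 to -1.11 and a median of -1.42. Mcm2 to Mcm7 encode the 6 subunits of the ring that unwinds DNA. Mcm2 read 10.61, 10.52 and 10.64 without LPS and 9.03, 9.06 and 9.21 with LPS and vehicle, 2.81-fold lower (SE of the log2 difference 0.11, adjusted p = 1.79e-07 in limma). Mcm5 read 10.74, 10.80 and 10.86 against 9.01, 9.20 and 9.34, 3.07-fold lower (SE 0.13, adjusted p = 4.45e-07 in limma). Both genes were lowest in replicate 1 among the arrays with LPS and vehicle, while the arrays without LPS lay within 0.13 of each other in Mcm5. Mcm4 read 9.49, 9.50 and 9.40 against 7.99, 8.12 and 8.24 (difference -1.35), and Mcm6 read 10.55, 10.49 and 10.51 against 8.89, 9.17 and 9.23 (-1.42). Mcm3 stood at -1.33 and Mcm7 at -1.72, so that the 6 subunits lay between -1.72 and -1.33. Cdc45 and the GINS subunits join the ring to make the active helicase: Gins1 stood at -1.66, Gins3 at -1.38, Cdc45 at -1.11 and Gins2 at -1.11. Mcm10, which is needed to fire the loaded helicase, stood at -1.52. The SE of the 11 differences ran from 0.11 to 0.20, and differences between subunits were not tested.

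All 7 polymerase and primase genes fell, 5 of them at least 2-fold, with a median of -1.25. Pole2, a subunit of the leading-strand polymerase epsilon, read 7.57, 7.65 and 7.66 without LPS and 6.25, 6.01 and 6.25 with LPS and vehicle, 2.74-fold lower (SE of the log2 difference 0.10, adjusted p = 1.02e-07 in limma). Pola1, the catalytic subunit of polymerase alpha that starts each strand, read 8.07, 8.19 and 7.98 against 6.66, 6.91 and 6.93, 2.37-fold lower (SE 0.086, adjusted p = 1.04e-07 in limma). The groups were separated by more than 1.00 on the log2 scale in both genes. Pold1, the catalytic subunit of the lagging-strand polymerase delta, read 8.76, 8.64 and 8.84 against 7.29, 7.33 and 7.75 (-1.29). Prim2, the large primase subunit, read 9.35, 9.14 and 9.30 against 8.41, 8.52 and 8.44 (-0.81, SE 0.075). Pole itself stood at -1.61, the small primase subunit Prim1 at -1.24 and Pola2, the second subunit of polymerase alpha, at -0.71. Pola2 and Prim2 were the 2 of the 7 that fell by less than 2-fold, and Pola2 was among the bright genes, at 10.08 ± 0.035 (SD, n = 3) without LPS.

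Among the genes of the clamp, its loader and strand joining, 6 of 6 found fell, 3 at least 2-fold, with a median of -1.11. Pcna, the clamp that holds polymerases on DNA and the brightest of the 39 genes, read 11.55, 11.55 and 11.47 without LPS and 10.54, 10.71 and 10.65 with LPS and vehicle. That was 1.85-fold lower (difference -0.89, SE 0.076, adjusted p = 7.54e-07 in limma). The decrease was many times the SD of either group, 0.044 without LPS and 0.087 with LPS and vehicle. Lig1, the ligase that seals the lagging strand, read 8.78, 8.80 and 8.94 against 7.40, 7.38 and 7.51 (-1.41, adjusted p = 2.36e-06 in limma). Rpa2, a subunit of the single-strand binding protein, read 8.73, 8.51 and 8.83 against 7.39, 7.22 and 7.44 (-1.34). Rfc5, a subunit of the clamp loader, read 8.15, 8.16 and 7.96 against 6.51, 6.74 and 6.80 (-1.40), and its fellow subunit Rfc3 stood at -0.80. Fen1, the nuclease that trims primers from the lagging strand, stood at -0.81 (SE 0.15). In Pcna, Rfc3 and Fen1 the change was under 2-fold, yet none of their arrays with LPS reached the level of an array without it.

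Genes of nucleotide supply held both ends of the range. Tk1, the thymidine kinase that salvages thymidine in S phase, had the largest decrease of the 39, reading 9.20, 9.45 and 9.70 without LPS and 7.40, 7.61 and 7.74 with LPS and vehicle. It was 3.65-fold lower (difference -1.87, SE 0.20, adjusted p = 6.44e-06 in limma). Its arrays without LPS were the most spread of the 39 genes, with an SD of 0.25. Rrm1 and Rrm2 encode the large and small subunits of ribonucleotide reductase, which makes deoxynucleotides from ribonucleotides. Rrm1 read 10.62, 10.45 and 10.44 against 8.82, 9.11 and 9.18 (-1.47, adjusted p = 7.05e-06 in limma), and Rrm2 read 9.02, 8.83 and 8.90 against 7.07, 7.34 and 7.60 (-1.58, adjusted p = 4.30e-05 in limma). Both were lowest in replicate 1 with LPS and highest in replicate 1 without it. Dut, which removes dUTP, read 7.86, 7.90 and 7.52 against 6.55, 6.82 and 6.40 (-1.17). Tyms, thymidylate synthase, had the smallest decrease, 1.43-fold, from 6.33 ± 0.16 to 5.82 ± 0.23 (SD, n = 3), with a difference of -0.51 (SE 0.13, adjusted p = 0.00751 in limma). It was also the second dimmest gene without LPS.

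The 4 genes that copy chromatin and DNA methylation behind the fork each fell at least 2-fold, with a median of -1.31. Dnmt1, the methyltransferase that copies methylation onto the new strand, read 10.97, 11.06 and 10.94 without LPS and 9.69, 9.81 and 9.87 with LPS and vehicle, 2.3-fold lower (SE of the log2 difference 0.080, adjusted p = 7.14e-08 in limma). Uhrf1, which brings Dnmt1 to hemimethylated DNA, read 10.61, 10.48 and 10.56 against 8.63, 8.80 and 9.12, 3.25-fold lower (SE 0.14, adjusted p = 5.67e-07 in limma). Both genes were bright without LPS and dropped on all 3 arrays with it. Chaf1a and Chaf1b are subunits of the chaperone that places new histones at the fork. Chaf1b read 8.87, 8.86 and 8.80 against 7.64, 7.81 and 7.60 (-1.16), and Chaf1a read 7.79, 7.49 and 7.63 against 5.89, 6.24 and 6.54 (-1.41). Ung, the glycosylase that removes uracil from DNA, read 6.83, 6.89 and 6.79 against 5.59, 5.65 and 5.96 (-1.11, adjusted p = 2.72e-04 in limma). E2f1, a transcription factor that drives many of these genes, read 7.75, 7.77 and 7.82 against 6.87, 6.77 and 7.28, 1.75-fold lower (difference -0.81, SE 0.14, adjusted p = 4.50e-04 in limma). Its replicate 3 array with LPS and vehicle was the closest to the arrays without LPS.

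Other genes of the same processes moved less evenly. Over all 15468 tested genes, 2527 (16.3%) were called lower and 2089 higher, which the counts below stand beside. Of 39 further replication genes tested, 32 were lower, 1 higher and 6 did not pass, with a median of -0.84. The largest decreases were those of Clspn, a checkpoint adaptor at the fork (-1.98), Top2a, the topoisomerase that untangles copied strands (-1.90), and Ticrr, which helps to fire origins (-1.78). The 1 higher gene was the histone chaperone gene Asf1a (0.29, adjusted p = 0.0226 in limma), whose call was lost without vehicle replicate 1 (adjusted p = 0.0655) or 2 (0.0998), without replicate 3 of the cells without LPS (0.0939), and with only the 2 groups in the fit (0.081). Of 31 further genes that make or handle nucleotides, 10 were lower, 6 higher and 15 did not pass, with a median of -0.11. Dtymk, which phosphorylates dTMP (-0.95), Dctpp1, a pyrophosphatase of the nucleotide pool (-0.81), and the ribose phosphate synthetase gene Prps2 (-0.81) fell most. Cmpk2, a mitochondrial nucleotide kinase induced by interferon (2.91), the uridine phosphorylase gene Upp1 (2.78) and Impdh1, of guanine nucleotide synthesis (1.10), rose most. Of 25 regulators of S phase, 20 were lower, 1 higher and 4 did not pass, with a median of -0.88. E2f8 (-2.33), the S-phase cyclin gene Ccna2 (-1.97) and E2f7 (-1.97) fell most, and Cdkn1a, which encodes the inhibitor p21 of cyclin-dependent kinases, was the 1 that rose (0.38, adjusted p = 0.00256 in limma).

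**Figure D2:**
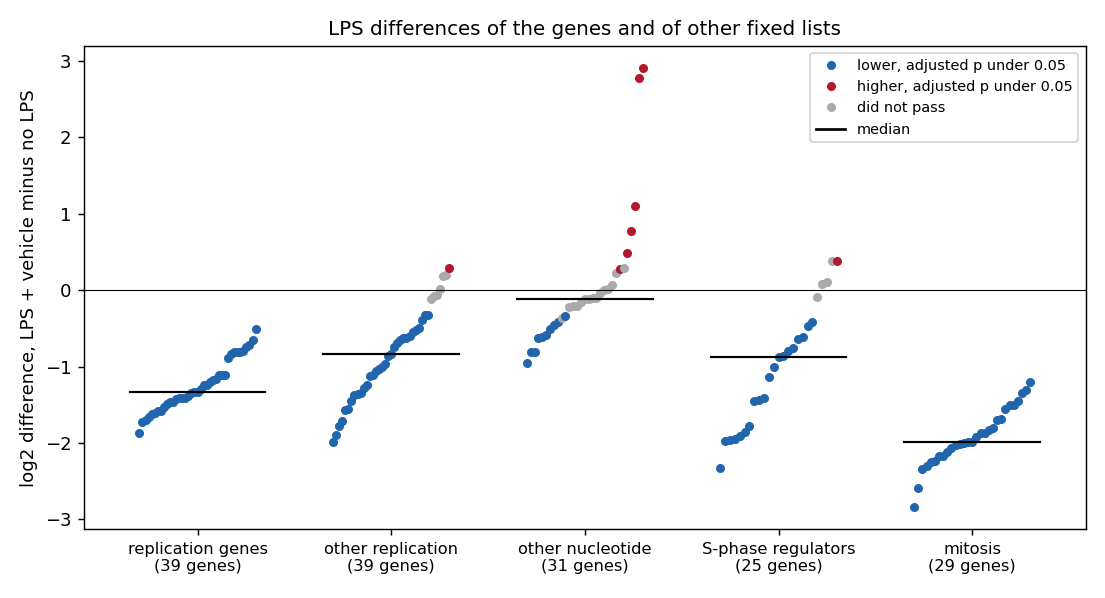
Log2 difference of LPS with vehicle minus no LPS (y axis) for each tested gene of 5 lists (1 point per gene, ranked within its list, coloured by call), with the list's median as a line. All 39 replication genes and all 29 mitosis genes are lower, while the other nucleotide genes reach from -0.95 to 2.91.

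Several complexes held subunits outside the 39 genes, which were looked at after the values were seen. In the origin recognition complex, Orc1 and Orc6 fell, Orc5 stood at -0.32 (adjusted p = 0.0201 in limma), and Orc2 (-0.11), Orc3 (-0.07) and Orc4 (0.18) did not pass. The Orc5 call was lost without replicate 1 (adjusted p = 0.051) or 3 (0.0584) of the cells without LPS and without replicate 1 (0.097) or 3 (0.0527) of the vehicle group. In polymerase epsilon, beside Pole and Pole2, Pole3 stood at -0.55 and passed, while Pole4 stood at 0.01 and did not. In polymerase delta, Pold2 (-0.60) and Pold3 (-0.49) passed and Pold4 (0.19) did not. Gins4 stood at -0.62, Rfc1 at -0.69, Rfc2 at -0.86, Rpa1 at -1.03 and Rpa3 at -0.64, and all 5 passed as lower. Rrm2b, the small reductase subunit used outside S phase, stood at 0.23 and did not pass (adjusted p = 0.116 in limma), but passed as higher with each array centred on its median (0.29, adjusted p = 0.0348) and with repeated quantile normalization (0.28, adjusted p = 0.0453). Tk2, the mitochondrial thymidine kinase, was higher (0.49), as was Samhd1, which breaks down deoxynucleotides (0.77, adjusted p = 2.75e-05 in limma). Whether any of these differences differed from that of a partner subunit was not tested.

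Among the E2F factors, E2f1 and the activator E2f2 (-1.78) were lower, and so was E2f3 (-0.42, adjusted p = 0.0192 in limma). The E2f3 call was lost without replicate 1 of the cells without LPS (adjusted p = 0.0889), without replicate 1 (0.0912) or 2 (0.0712) of the vehicle group, with only the 2 groups in the fit (0.0716) and with centred arrays (0.0674). E2f4 (0.11) and E2f5 (0.09) did not pass. E2f6 stood at -0.80 and passed, and E2f7 and E2f8, given above, were lower as well. The pocket protein genes Rb1 (-0.76) and Rbl1 (-1.41), whose products restrain E2F factors, were lower too. A list of 29 mitosis genes (such as Ccnb2, Plk1 and Aurkb) gave 29 of 29 lower, against 16.3% of all genes. All 29 were lower by at least 2-fold, against 3.36%, with a median of -1.98 and a range of -2.84 to -1.20. The 39 replication genes gave -1.87 to -0.51. The difference between these lists was not tested.

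The LPS decrease was seen in each experiment, and its size varied between them. All 39 genes were lower with LPS and vehicle in each of the 3 experiments, as were 4664 of all 15468 tested genes. For the 39 genes this follows from the 2 groups not overlapping, given above. Their medians were -1.41, -1.25 and -1.16 in experiments 1, 2 and 3. In 29 of the 39 genes the largest decrease was that of experiment 1, a count not made over all tested genes. Chaf1a stood at -1.90, -1.25 and -1.09 on the log2 scale in the 3 experiments, Rrm2 at -1.94, -1.49 and -1.30, and Pole at -1.97, -1.45 and -1.40. Lig1 (-1.38, -1.42 and -1.43), Orc6 (-0.72, -0.74 and -0.76) and Rfc3 (-0.78, -0.81 and -0.81) varied by under 0.05 between experiments. The order of the experiments showed on the arrays with LPS. In experiment 1 the genes were lowest of the 3 arrays of their group in 30 of 39 cases with vehicle, 33 with 13-HDHEA, 31 with 16-HDHEA and 32 with both compounds, but in 10 of 39 without LPS. Over all tested genes, between 31.9% and 35.1% of genes were lowest in experiment 1 in the 4 groups with LPS. The experiment 1 array was the lowest in all 4 LPS groups for 22 of the 39 genes, against 5.35% of all genes. It was the lowest in 3 of the 4 groups for 8 genes, in 2 for 6 genes (Gins3, Pcna, Rpa2, Tyms, Dut and Ung), in 1 for Cdt1 and Pola1, and in none for Pole2. For the 29 mitosis genes the count was 28, 27, 28 and 28 of 29 in these groups and 7 of 29 without LPS. The cause of the difference between experiments was not tested.

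**Figure D3:**
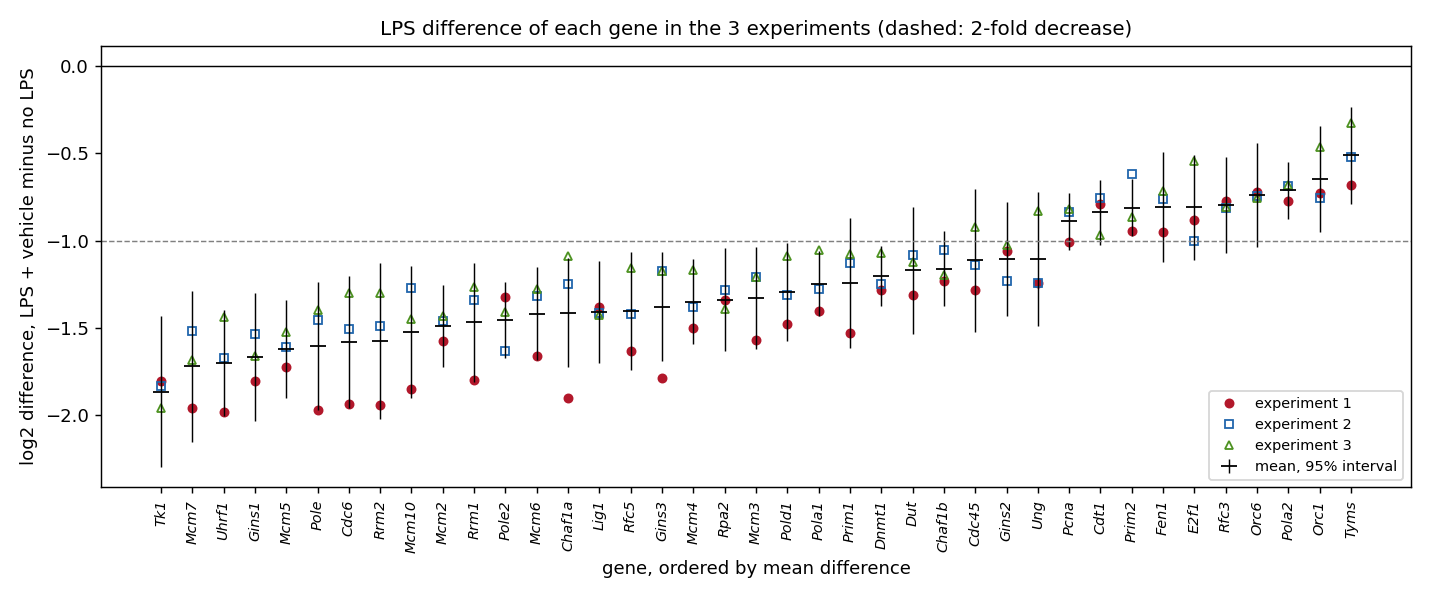
Log2 difference of LPS with vehicle minus no LPS (y axis) for each of the 39 genes (x axis, ordered by the mean), with 1 symbol for each of the 3 experiments and the mean with its 95% interval from limma in black. All symbols lie below 0, and experiment 1 is the lowest in 29 genes.

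**Figure D4:**
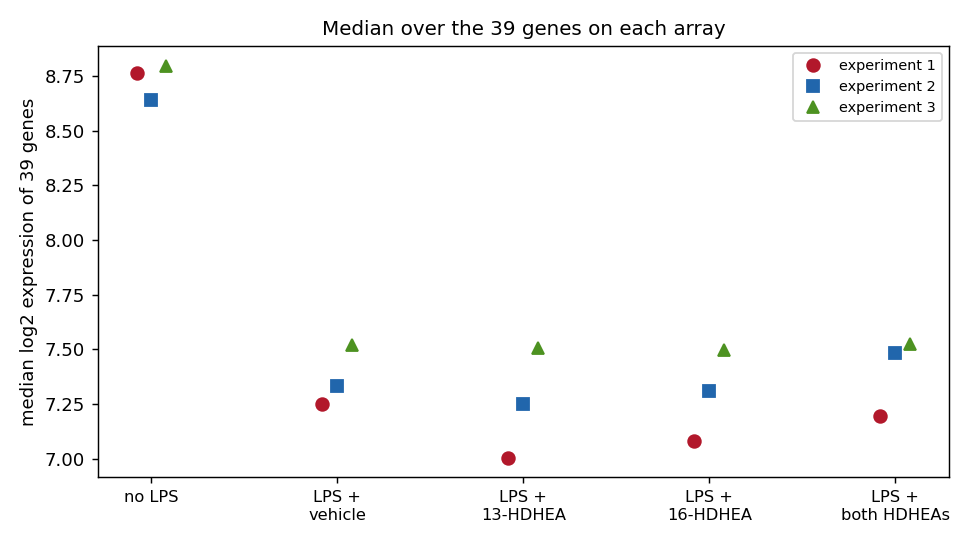
Median log2 expression of the 39 genes (y axis) on each array of the 5 groups, with 1 symbol per experiment. The 3 arrays without LPS lie between 8.64 and 8.80, and the 12 with LPS between 7.003 and 7.53.

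With LPS and an HDHEA treatment the genes were also low. The mean of the 3 HDHEA groups was set against no LPS, a comparison that shares its arrays without LPS with the one above. It called 39 of 39 genes lower, against 19.8% of all genes, 30 of them at least 2-fold, against 3.36%, with a median of -1.39. Tk1 stood at -1.82, Mcm7 at -1.69 and Rfc5 at -1.68. Tyms again had the smallest difference, -0.39 (adjusted p = 0.00951 in limma), and without replicate 2 of the cells without LPS it did not pass (adjusted p = 0.0779). In each of the 39 genes the 9 arrays with an HDHEA lay below the 3 arrays without LPS, which 17% of all genes did. Gins1 had the widest gap, with 9 values from 6.40 to 7.09 against 8.45, 8.65 and 8.56 without LPS. Tyms had the narrowest, with 5.78 to 6.14 against 6.24, 6.52 and 6.23. Across the same 9 arrays Mcm5 ran from 8.98 to 9.41, Cdc6 from 6.93 to 7.53, Pcna from 10.48 to 10.65, Rrm2 from 6.85 to 7.68, Dnmt1 from 9.60 to 9.82 and E2f1 from 6.64 to 7.16, each overlapping its 3 values with vehicle.

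None of the 39 genes passed when either compound, or their combination, was set against vehicle. These comparisons ask whether the compounds altered LPS-activated cells, and they share the 3 vehicle arrays. With 13-HDHEA limma called 0 of 39 (0.00646% of all genes), and 1 of 39 had an unadjusted p under 0.05, as did 4.27% of all genes. With 16-HDHEA it called 0 of 39 (0% of all genes), and 0 had an unadjusted p under 0.05 (2.97% of all genes). For both compounds the counts were 0 of 39 (0% of all genes) and 0 (3.48% of all genes). The median differences were -0.05, -0.04 and 0.01, where the medians of all tested genes were -0.01, 0.00 and 0.00. By experiment the medians were -0.06, -0.06 and -0.01 with 13-HDHEA, -0.01, -0.09 and -0.01 with 16-HDHEA, and -0.06, 0.09 and 0.03 with both.

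The intervals show what size of change the fit without the experiment as a block could have missed. That fit, which also gave the unadjusted p-values above, counts the spread between experiments as error. Intervals with the block are not given here. The 95% interval of the difference lay between -0.5 and 0.5 for 32 of the 39 genes with 13-HDHEA and for 35 of them with 16-HDHEA and with both. The lowest limits were those of Rfc5 with 13-HDHEA (-0.70) and 16-HDHEA (-0.67) and of Fen1 with both (-0.53). The highest limits were those of Tyms with 13-HDHEA (0.43), Tk1 with 16-HDHEA (0.51) and Mcm7 with both (0.51). For each of the 39 genes and each treatment the upper limit was below the size of that gene's LPS decrease, so that a full return to the level without LPS lay outside the interval.

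Some genes that were low with an HDHEA are described, picked after their values were seen and not by a ranking. Rfc5 read 6.51, 6.74 and 6.80 with vehicle, 5.95, 6.55 and 6.47 with 13-HDHEA, 6.24, 6.38 and 6.44 with 16-HDHEA and 6.25, 6.75 and 6.59 with both. It was lower in all 3 experiments with 13-HDHEA and with 16-HDHEA, and with 16-HDHEA its 3 arrays lay just below those with vehicle (1 of 39 genes was lower without overlap, against 3.59% of all genes). Its differences were -0.36 (95% interval -0.70 to -0.02, unadjusted p = 0.0384, adjusted p = 0.9998 in limma), -0.33 (-0.67 to 0.01) and -0.15 (-0.49 to 0.19). Fen1 read 6.68, 6.83 and 6.92 with vehicle, 6.14, 6.70 and 6.72 with 13-HDHEA, 6.45, 6.72 and 6.81 with 16-HDHEA and 6.42, 6.71 and 6.67 with both. The Fen1 arrays with an HDHEA were lower than the vehicle array of the same experiment in each case, but overlapped the vehicle group, with differences of -0.29, -0.15 and -0.21 (none with an unadjusted p under 0.05). The treatments share that vehicle array. Lower in all 3 experiments were 8 of the 39 genes with 13-HDHEA, 9 with 16-HDHEA and 2 with both. Of all 15468 tested genes, 2282, 1948 and 1814 were. Ung with 13-HDHEA was low on 1 array, with 4.95, 5.52 and 5.91 against 5.59, 5.65 and 5.96 with vehicle (-0.27, 95% interval -0.65 to 0.12). Pole2 had means of 6.17 with vehicle, 5.98 with 13-HDHEA, 6.08 with 16-HDHEA and 6.27 with both.

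The isomers were compared with each other at the same dose and time, 1 pair, with p-values adjusted over all genes. Limma called 0 of 39 genes (0.00646% of all genes), and 0 had an unadjusted p under 0.05 (3.1% of all genes). The median difference, 13-HDHEA minus 16-HDHEA, was -0.02, and the interval lay between -0.5 and 0.5 for 36 of the 39 genes. Single differences ran from -0.23 for Ung (95% interval -0.61 to 0.16) to 0.18 for Uhrf1 (-0.12 to 0.48). The value of Ung turned to 0.03 without replicate 1 of 13-HDHEA. Pola1 had the smallest p: it read 6.96, 6.85 and 6.89 with 13-HDHEA and 6.79, 6.82 and 6.76 with 16-HDHEA, and the groups did not overlap (1 of 39 genes was higher without overlap, against 3.01% of all genes). Its difference was 0.11 (95% interval -0.07 to 0.30, unadjusted p = 0.213, adjusted p = 1 in limma). The combined treatment held each compound at 2.5 µM, so its values stand beside those of the single compounds and were not tested against them. Mcm6 read 8.96, 9.05 and 9.15 with 13-HDHEA, 8.99, 9.07 and 9.32 with 16-HDHEA and 8.90, 9.15 and 9.34 with both. Rrm1 read 8.79, 9.10 and 9.19, 8.83, 9.20 and 9.23 and 8.82, 9.30 and 9.34 in the same order, with the replicate 1 array lowest each time, as it was with vehicle.

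**Figure D5:**
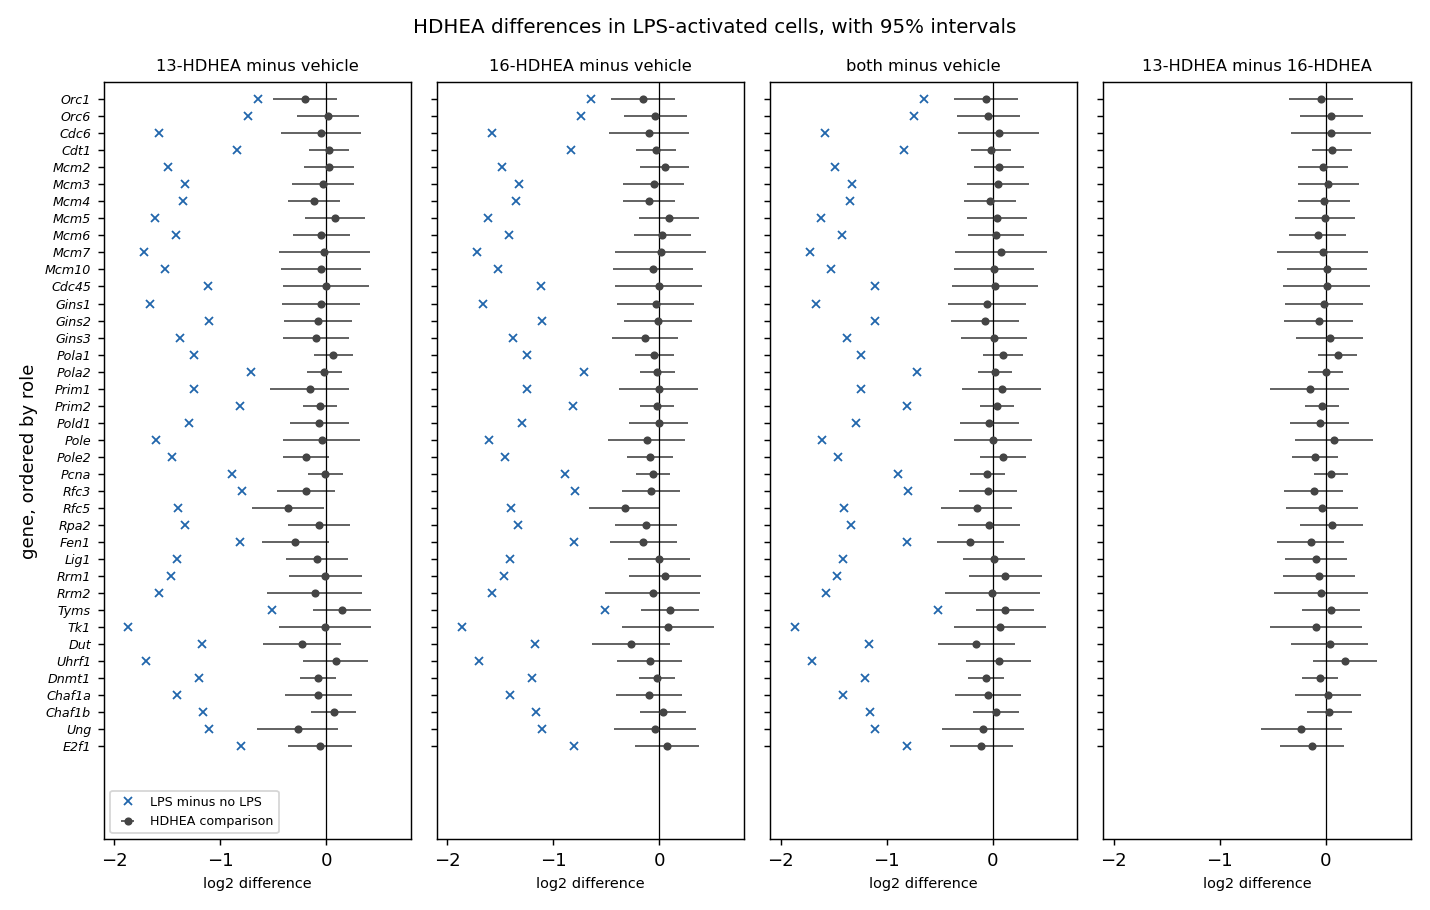
Log2 differences of the 39 genes (y axis, ordered by role) between HDHEA treatments and vehicle in LPS-activated cells, and between the 2 isomers in the right panel, as points with 95% intervals from limma, and the LPS decrease of each gene as crosses in the first 3 panels. The points lie between -0.36 and 0.18, and no interval reaches the cross of its gene. The crosses are decreases, so a return to the level without LPS would lie on the opposite side of 0.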

How the data were processed

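The authors deposited log2 expression values per probe set, made with RMA per the submitters' processing notes; the RMA version is not given in the sources used here. RNA was labelled with a whole-transcript sense assay, per the labels' protocols. The genes, the lists and the tests were chosen with earlier results of these data known. Of 41345 probe sets, 23521 had exactly 1 symbol, 1814 had several and 16010 were not in the gene table. The brightest probe set stood for each of 22180 genes. Genes above the 40th percentile of their array on at least 3 arrays were tested, 15468 in all.

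Limma (version 3.58.1, R version 4.3.3) fitted group means over all 15 arrays, with Benjamini-Hochberg adjustment over all tested genes and calls at an adjusted p under 0.05. The fit was checked on simulated data. Precision is limited by having 3 arrays per group. In the labels a replicate number goes with 1 experiment identifier. Same-numbered arrays correlated in their deviations from the group means at 0.0835 to 0.404 over 30 pairs, 28 of them above 0.1, and 15 of 15 arrays correlated best with their own number, so the experiment was used as a block in an alternative.

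Genes were named by a rule: all 40 by role, with values by array for the 4 of smallest p in each role, and the 3 that moved most in either direction in each further list. Partner subunits, further E2F and pocket protein genes, and the examples by experiment and by HDHEA treatment stand outside this rule. Promoters came from RefSeq (GRCm38.p6). Alternatives were the block, only the groups compared, no filter or one at the 60th percentile, centred arrays, repeated quantile normalization, trend and robust settings, the mean of probe sets, and leaving out each array.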

Additional observations from a re-analysis of the deposited data

How the results depend on the processing

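The count of the 39 genes called was 39 with LPS and vehicle against no LPS, and 0 in each comparison among the LPS groups, under all 23 alternatives. For the HDHEA groups against no LPS it was 39, or 38 where replicate 2 without LPS was left out. With the experiment as a replicate block, 39 of 39 were lower with LPS against no LPS, beside 18.7% of all genes, and no call of these 39 genes changed. The median LPS difference ran from -1.38 to -1.21 when single arrays were left out, and the HDHEA groups against no LPS from -1.42 to -1.34. The small medians among the LPS groups moved with single arrays: -0.131 to 0.0148 with 13-HDHEA, -0.107 to 0.0248 with 16-HDHEA, -0.0590 to 0.0936 with both, and -0.0900 to 0.0602 between the isomers, where repeated quantile normalization gave -0.00342. No sign among the 39 genes turned with LPS against no LPS under the alternatives, but among the LPS groups, where none was called, up to 17 of 39 turned with 13-HDHEA, 14 with 16-HDHEA, 15 with both and 16 between the isomers. Over the fits that each leave out 1 array, Orc3 with LPS ran from -0.115 to 0.00182 (above 0 without replicate 1 of the cells without LPS). Pole4 with LPS ran from -0.107 to 0.0921, with -0.0183 and -0.0436 without replicates 1 and 2 of the cells without LPS and its lowest value without vehicle replicate 3. Tyms with 16-HDHEA ran from -0.0295 (without vehicle replicate 1) to 0.187, and Ung between the isomers from -0.457 to 0.0255 (without 13-HDHEA replicate 1). The cause was not tested. Centring the arrays moved the median of all genes with LPS from 0.000209 to 0.0589. Which genes signal over background limits was not tested, and Orc1 was the dimmest of the 39 in every group.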

Other observations

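Rfc4, a clamp loader subunit, has a probe set that also carries the symbol of the translation factor gene Eif4a2. It read 9.02 ± 0.059 without LPS and 7.71 ± 0.18 with LPS and vehicle (SD, n = 3), a log2 difference of -1.31 that cannot be given to either gene. Second probe sets with 1 symbol, found for 4 genes, were dimmer. That of Fen1 went from 5.78 to 5.03 (-0.748) and that of Rrm2 from 4.58 to 3.30 (-1.28), as the brighter sets did. Those of Pole (3.27 and 3.21) and Dut (2.71 and 2.10) were near the bottom of the range, and the Dut set was above the 40th percentile on 0 arrays. Of the dimmer sets with a second symbol, the one shared by Mcm7 and Mir25 did not fall (4.73 and 4.82). The set shared by Mcm7 and Mir93 read 2.43 and 2.32, and that of Tyms and Tyms-ps 4.06 and 3.65.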
